A study of Mus musculus with 12 samples.

Results

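Granule neurons and unipolar brush cells are the excitatory neurons of the cerebellar granular layer, and 7 genes that mark them were followed here through all 4 conditions of the study. The genes were taken by name and all 7 had a row among the 7667 named genes of the table: the transcription factors Neurod1, Zic1 and Pax6, the secreted cerebellins Cbln1 and Cbln3, the Rac regulator Chn2, and Eomes for unipolar brush cells. The study measured cerebellar RNA of fxSCA7 92Q mice, which carry an Atxn7 repeat of 92 CAG and model spinocerebellar ataxia type 7, and of their wild-type littermates. The groups were 92Q at 29 weeks, wild type at 29 weeks, 92Q at 12 weeks and wild type at 12 weeks. Each group had 3 libraries, each library pooled the cerebella of 3 mice, and neither the sex of the animals nor the promoter driving the expanded allele is stated in the labels. In the deposited table the 3 libraries of a group are combined into 1 whole-number normalized score of unstated unit, so no value below has a replicate error, no test was possible, and "higher" and "lower" describe these 4 values only.

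Granule neurons are the most numerous neurons of the cerebellum, and their parallel fibres form synapses on Purkinje cell dendrites. Cbln1, a protein of the C1q family, is released by granule neurons, binds neurexin on the parallel fibre and helps to form and keep the synapse with the Purkinje cell; Cbln3 is secreted in complex with Cbln1. Neurod1 is a basic helix-loop-helix factor needed for granule neurons to differentiate and survive, Zic1 is a zinc-finger factor of granule precursors and mature granule neurons, and Pax6 is a paired-box factor that acts in granule precursors and in other lineages of the rhombic lip. Chn2 encodes beta-chimaerin, a GTPase-activating protein that turns off Rac. Eomes, also called Tbr2, is a T-box factor and the usual marker of unipolar brush cells, glutamatergic interneurons that amplify mossy fibre input, mainly in the vestibular part of the cerebellum.

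The genes are placed here on mm10 with the GENCODE M21 annotation, which gives each of them as protein-coding. Neurod1 lies on the minus strand of chromosome 2 at 79452521 to 79456751 and Pax6 on the plus strand of the same chromosome at 105668900 to 105697364. Zic1 lies on chromosome 9 at 91358058 to 91365810 (minus strand) and Eomes on chromosome 9 at 118478212 to 118486132 (plus strand). Cbln1 lies on chromosome 8 at 87468405 to 87472609 (minus strand), Cbln3 on chromosome 14 at 55878913 to 55884392 (minus strand) and Chn2 on chromosome 6 at 54039554 to 54301810 (plus strand). The labels do not say whether the counting used strand, so reads from overlapping exons on opposite strands cannot be told apart. Shared exon bases were few: Zic1 shares 60 of its 5693 exon bases with Zic4, Eomes 118 of 4155 with the antisense gene Gm33460, Neurod1 154 of 2729 with Gm26755 on the other strand and 201 with Cerkl on its own strand, and Chn2, of its 5812, 552 with 9130019P16Rik and 65 with Gm15527 on the other strand. Zic4, whose score was 13 in 92Q and 12 in wild type at 29 weeks and 15 in both genotypes at 12 weeks, did not have the pattern of Zic1 described below.

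Upstream sequences are shown for Neurod1, Zic1 and Cbln3, which shared one order of their values over the 4 conditions, and for Eomes, which had the largest differences. They are the 250 bases before the annotated start from RefSeq on GRCm38.p6, the same assembly as mm10, written 5′ to 3′ on the strand of the gene; a window was matched by symbol for 6 of the 7 genes, all but Cbln1. The windows are chr2:79456637-79456886 and chr9:91365769-91366018 on the minus strand, chr14:55884257-55884506 on the minus strand and chr9:118477939-118478188 on the plus strand. By the GENCODE placement given above, the windows of Neurod1, Zic1 and Cbln3 lie partly within the gene, and that of Eomes does not. Capitals mark the E-box letters CANNTG, the kind of site that basic helix-loop-helix factors such as Neurod1 can bind.
Neurod1: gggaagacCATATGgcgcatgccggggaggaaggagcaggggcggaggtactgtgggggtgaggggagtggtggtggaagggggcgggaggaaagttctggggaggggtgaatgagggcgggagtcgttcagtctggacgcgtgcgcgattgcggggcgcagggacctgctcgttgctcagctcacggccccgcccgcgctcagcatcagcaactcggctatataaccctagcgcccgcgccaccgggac
Zic1: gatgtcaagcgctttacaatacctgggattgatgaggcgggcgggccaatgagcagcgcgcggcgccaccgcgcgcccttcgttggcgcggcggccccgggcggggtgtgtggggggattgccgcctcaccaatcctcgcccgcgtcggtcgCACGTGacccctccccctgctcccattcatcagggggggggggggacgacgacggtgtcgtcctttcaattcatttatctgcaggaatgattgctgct
Cbln3: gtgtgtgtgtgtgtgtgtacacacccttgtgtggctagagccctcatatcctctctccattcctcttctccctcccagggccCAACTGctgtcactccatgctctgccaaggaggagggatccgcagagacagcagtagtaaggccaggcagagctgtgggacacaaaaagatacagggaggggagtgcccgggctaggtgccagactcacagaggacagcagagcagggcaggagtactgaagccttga
Eomes: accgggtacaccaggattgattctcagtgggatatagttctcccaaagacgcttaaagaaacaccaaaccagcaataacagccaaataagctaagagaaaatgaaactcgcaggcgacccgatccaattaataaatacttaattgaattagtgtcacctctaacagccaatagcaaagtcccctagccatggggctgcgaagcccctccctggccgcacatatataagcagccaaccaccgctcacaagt
Each of the windows of Neurod1, Zic1 and Cbln3 held 1 E-box match, which was CATATG for Neurod1, CACGTG for Zic1 and CAACTG for Cbln3, and the window of Eomes held 0. Of all 32851 upstream windows of the same length 66.2% held a match, so a match is common. The narrower form CAGCTG, which is itself an E-box, was in 13.0% of all windows, and the T-box site GGTGTGA in 3.33%, read on both strands; neither was in these 4 windows. These letters describe the windows and are not evidence of binding.

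At 29 weeks, 5 of the 6 granule neuron genes were slightly lower in 92Q than in wild type, Pax6 was not, and Eomes was far lower. Only Eomes passed 1.5-fold, so 1 of the 7 genes was called, against a background of 1.27% of 7666 genes compared. On the log2 scale of score plus 1 used for all ratios here, the 6 granule neuron genes had a median ratio of -0.15, where the median of all genes was 0.00. Of all genes 26.1% were lower by any amount at this age, and of the 582 genes with a mean score of 100 or more, a limit chosen after the values were seen, 41.1% were lower. At 12 weeks 5 of the 6 were slightly higher in 92Q and Chn2 was within rounding of wild type, with a median of 0.06; 32.1% of all genes and 35.7% of those with a mean score of 100 or more were higher at that age.

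**Figure D1:**
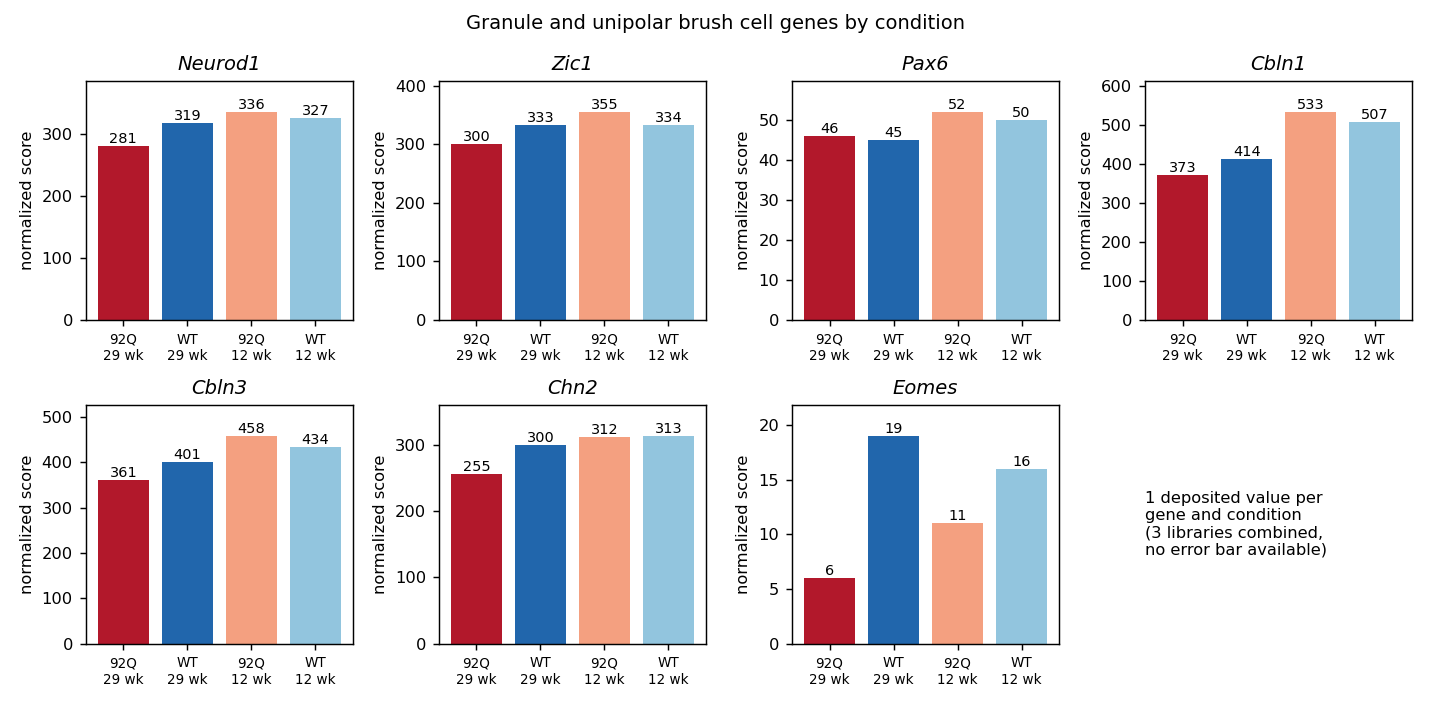
Deposited normalized score (y axis, from 0) of each of the 7 genes in 92Q and wild-type (WT) cerebellum at 29 and 12 weeks; each bar is the authors' single value for a condition, with no error available. The 92Q value at 29 weeks is the lowest of the 4 bars for Neurod1 (281), Zic1 (300), Cbln1 (373), Cbln3 (361), Chn2 (255) and Eomes (6), but not for Pax6 (46).

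Among the transcription factors, Neurod1 had a score of 281 in 92Q and 319 in wild type at 29 weeks, and of 336 in 92Q and 327 in wild type at 12 weeks. The 29-week 92Q value was 11.9% below wild type, a log2 ratio of -0.18, for which rounding of the scores alone allows -0.19 to -0.18. At 12 weeks the ratio was 0.04. Neurod1 thus stood below wild type at the later age only, and 5.05% of all genes had a 29-week ratio as low or lower.

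Zic1 had a score of 300 in 92Q and 333 in wild type at 29 weeks, and of 355 in 92Q and 334 in wild type at 12 weeks. Its log2 ratio of 92Q to wild type was -0.15 at 29 weeks and 0.09 at 12 weeks, and its wild-type scores at the 2 ages differed by 1 unit, which rounding alone could make. The 92Q value was therefore the highest of the 4 at 12 weeks and the lowest at 29 weeks. Zic2, the related factor encoded elsewhere and named here after its values were seen, had the same order, with 180 in 92Q and 189 in wild type at 29 weeks and 206 and 194 at 12 weeks in the same 2 genotypes.

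Pax6 had a score of 46 in 92Q and 45 in wild type at 29 weeks, and of 52 in 92Q and 50 in wild type at 12 weeks. Its genotype ratios were 0.03 at 29 weeks and 0.06 at 12 weeks, and at 29 weeks rounding allows a range of 0.00 to 0.06. Pax6 was the one granule gene of the 6 that was not below wild type at 29 weeks. Its values instead separated by age, with log2 ratios of 29 to 12 weeks of -0.17 in 92Q and -0.15 in wild type. The difference between Pax6 and the other 5 genes was not tested.

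The cerebellins moved with age as well as with genotype. Cbln1 had a score of 373 in 92Q and 414 in wild type at 29 weeks, and of 533 in 92Q and 507 in wild type at 12 weeks. From these, the log2 ratio of 29 to 12 weeks was -0.51 in 92Q and -0.29 in wild type. In 92Q 0.809% of 7667 genes had an age ratio as low or lower, and in wild type 2.22% of 7663 genes did. The age difference of Cbln1 was thus present in both genotypes, and the genotype ratio at 29 weeks, -0.15, was smaller in size than either of them.

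Cbln3 had a score of 361 in 92Q and 401 in wild type at 29 weeks, and of 458 in 92Q and 434 in wild type at 12 weeks. Its log2 ratios of 92Q to wild type were -0.15 at 29 weeks and 0.08 at 12 weeks, close to those of Cbln1, which were -0.15 and 0.07. At 29 weeks Cbln3 was 21.2% below its 12-week value in 92Q and 7.60% below it in wild type. The 2 cerebellins therefore had nearly equal genotype ratios at each age, while the age ratio in wild type was -0.29 for Cbln1 and -0.11 for Cbln3.

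Chn2 had a score of 255 in 92Q and 300 in wild type at 29 weeks, and of 312 in 92Q and 313 in wild type at 12 weeks. The values at 12 weeks were equal within rounding, and the 29-week ratio of -0.23 was the lowest of the 6 granule genes; 3.67% of all genes had one as low or lower. The paralogue Chn1, which encodes alpha-chimaerin, was instead lower in 92Q at both ages, at 55 against 64 in wild type at 29 weeks (-0.22) and at 56 against 63 at 12 weeks (-0.17).

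**Figure D2:**
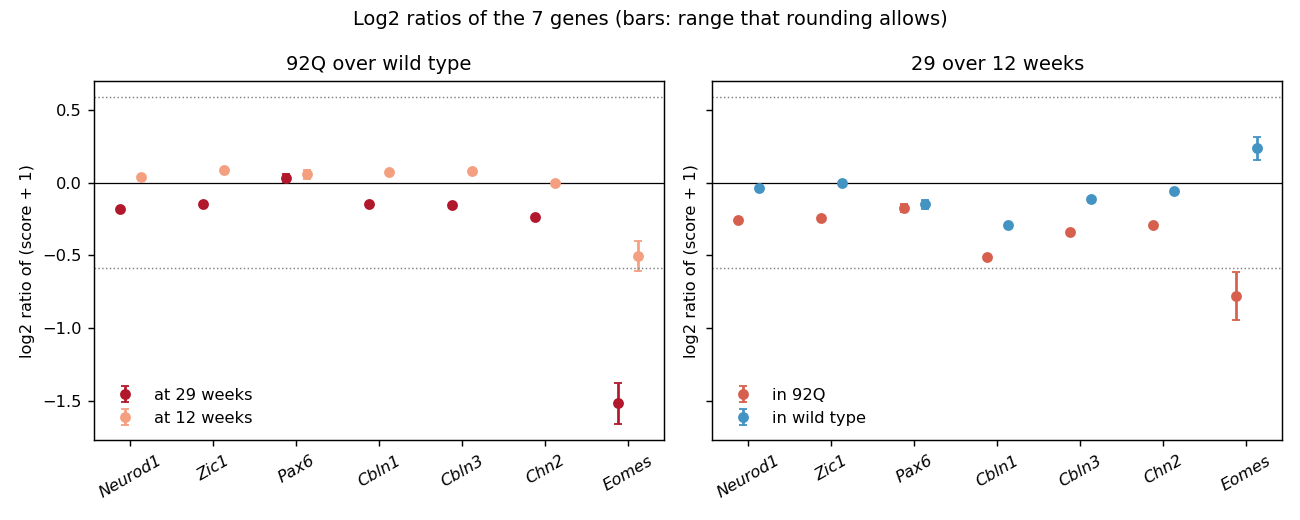
Log2 ratios of (score + 1) of the 7 genes, 92Q over wild type at each age (left) and 29 over 12 weeks in each genotype (right); points are the ratios, bars the range that rounding to whole numbers allows, dotted lines 1.5-fold. Neurod1, Zic1, Cbln1 and Cbln3 lie above 0 at 12 weeks and below 0 at 29 weeks, and Eomes reaches -1.51 at 29 weeks.

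Over the 4 conditions, the 92Q value at 29 weeks was strictly the lowest for 6 of the 7 genes, against 17.1% of all 7667 genes and 33.8% of the 582 genes with a mean score of 100 or more. Of them 4, Neurod1, Zic1, Cbln1 and Cbln3, had one and the same order, 92Q at 12 weeks above wild type at 12 weeks, above wild type at 29 weeks, above 92Q at 29 weeks. That order held for 1.76% of all genes and for 7.04% of the genes with a mean score of 100 or more. For Zic1 the middle step, wild type at 12 over wild type at 29 weeks, was 1 unit and turned round under upper quartile scaling, median of ratios scaling and quantile normalization of the columns; for Neurod1 it turned round under quantile normalization. The signs of the genotype ratios of these 4 genes at both ages did not change under the 3 scalings.

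The lower values at 29 weeks can be set against age. Within 92Q all 6 granule genes were lower at 29 than at 12 weeks (median log2 ratio -0.27), from -0.17 for Pax6 to -0.51 for Cbln1. Within wild type all 6 were lower too by the deposited values (median -0.09), but this median was -0.053 under upper quartile scaling and -0.019 under quantile normalization, and Zic1 (-0.00) turned to the other side of 0 under all 3 scalings and Neurod1 (-0.04) under quantile normalization. Of all genes 35.4% in 92Q and 45.9% in wild type were lower at 29 weeks, and of those with a mean score of 100 or more 57.6% and 72.0% in the same 2 genotypes. The difference of the genotype ratios, 29 minus 12 weeks, lay between -0.24 and -0.22 for Neurod1, Zic1, Cbln1, Cbln3 and Chn2 and was -0.02 for Pax6. These comparisons share their condition values, so they are not separate results, and the 1 condition of 92Q at 29 weeks enters most of them.

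Eomes was the gene with the large difference. Its score was 6 in 92Q and 19 in wild type at 29 weeks, and 11 in 92Q and 16 in wild type at 12 weeks. Both 92Q values were below both wild-type values. At 29 weeks the log2 ratio was -1.51, with a rounding range of -1.66 to -1.38, and 1 of 7666 genes, the small nucleolar RNA AF357426, had a lower one. At 12 weeks the ratio was -0.50, with a rounding range of -0.61 to -0.40; this missed 1.5-fold, which 0.248% of 7660 genes reached, and 17 genes had a lower ratio.

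With age, Eomes was 6 at 29 weeks and 11 at 12 weeks in 92Q (log2 ratio -0.78), whereas in wild type it was 19 at 29 weeks and 16 at 12 weeks (0.23). Eomes was the only one of the 7 genes past 1.5-fold with age in 92Q, where 1.46% of 7667 genes were, but with a pseudocount of 5 its ratio was -0.54 and none of the 7 passed. In wild type none of the 7 passed, where 0.365% of 7663 genes did. The difference of its genotype ratios between the ages was -1.01, again the only one of the 7 past 1.5-fold, which 1.07% of genes passed. The low scores limit these statements: a change of 1 unit in a score of 6 is a large share of it, and the read depth behind the scores is unknown. Every row of the table reaches 10 in one or more conditions; Eomes did so in 3 of 4, so its row does not rest on 1 condition. In the authors' deposited table of 99 genes, which they picked from these samples in a way the labels do not describe, Eomes was the only one of the 7 genes and had the lowest 29-week ratio but one.

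**Figure D3:**
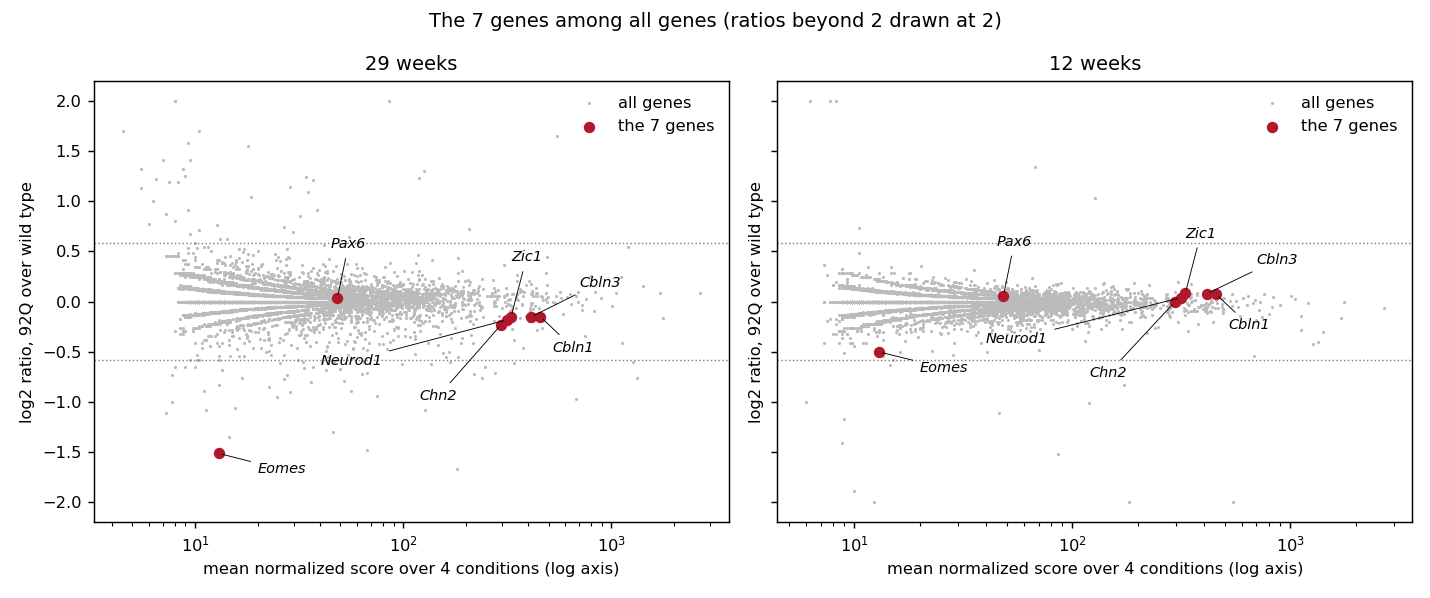
Log2 ratio of 92Q over wild type (y axis) against the mean score over the 4 conditions (x axis, log) for all genes in grey and the 7 genes in red, at 29 weeks (left) and 12 weeks (right); dotted lines mark 1.5-fold. At 29 weeks 1 of 7666 genes lies below Eomes (-1.51). The 5 granule genes with high scores lie in the lower part of the grey band at that age (-0.23 to -0.15).

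Genes used to mark unipolar brush cells gave a mixed picture at 29 weeks. Of 7 listed genes 5 were measured, Eomes among them. Of the 5, 2 were lower in 92Q, 2 higher and 1 equal, with a median log2 ratio of 0.00. Without Eomes 1 was lower, 2 higher and 1 equal, with a median of 0.03. Under median of ratios scaling, which moved the median of all genes to -0.025, 3 of the 5 were lower and 2 higher. Only Eomes among these 5 was past 1.5-fold. Plcb4, a phospholipase C that is also strongly expressed by Purkinje cells, was 59 in 92Q and 68 in wild type (-0.20). Calb2, or calretinin, which marks a subset of unipolar brush cells and is also made by granule neurons, was 259 in 92Q and 249 in wild type at 29 weeks (0.06). Lmx1a, the other transcription factor on the list, was not analysed here. Fewer unipolar brush cells and less Eomes RNA per cell cannot be told apart in whole cerebellum, and the same holds for the granule neuron genes.

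At 12 weeks 3 of the 5 measured unipolar brush cell genes were lower in 92Q, 1 was higher and 1 equal, with a median of -0.15. Without Eomes 2 were lower, 1 higher and 1 equal, with a median of -0.07. None of the 5 was past 1.5-fold. Of 7660 genes compared at this age, 2812 were lower in 92Q by any amount, and 0.248% reached 1.5-fold. The vesicular glutamate transporter Slc17a6 was 14 in 92Q and 16 in wild type (-0.18), and Calb2 was 293 in 92Q and 325 in wild type (-0.15).

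Wider granule neuron lists were split in direction at 29 weeks, when 49.5% of all genes and 54.6% of those with a mean score of 100 or more were higher in 92Q and, as given above, 26.1% and 41.1% lower. Of 23 listed granule lineage transcription factors 17 were measured, and at 29 weeks 10 were higher in 92Q and 7 lower, with a median of 0.06. Of the 10, Barhl1 and Zic5 reached the table's minimum of 10 in 92Q columns alone. Barhl1 did so at 29 weeks only, so its direction at that age was fixed by having a row. Zic5 did so at both ages, with 10 in 92Q and 9 in wild type at each. Without these 2 genes 8 of 15 were higher and 7 lower, with a median of 0.03. Without these and the 3 factors described above, 7 of 12 were higher and 5 lower, with a median of 0.06. Neurod2, a relative of Neurod1 active in mature neurons, was 83 in 92Q and 99 in wild type (-0.25), the lowest of the list. On the other side, Nfib, a nuclear factor I gene of granule neuron maturation, was 46 in 92Q and 41 in wild type (0.16), and Meis1, a homeodomain factor of granule precursors, was 19 in 92Q and 17 in wild type (0.15). At 12 weeks 14 of the 17 were higher in 92Q and 1 lower, with a median of 0.07, and without Barhl1 and Zic5 13 of 15 were higher.

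Receptors, transporters and other genes of mature granule neurons were all measured, 15 of 15. At 29 weeks 7 were lower in 92Q, 6 higher and 2 equal, with a median of 0.00. Under upper quartile scaling 7 were lower and 6 higher, and under quantile normalization 9 were lower and 5 higher. Under median of ratios scaling 11 were lower and 4 higher, with a median of -0.027. That scaling moved the median of all genes to -0.025. Grm4, the presynaptic mGluR4 receptor of parallel fibres, had the lowest ratio, with 100 in 92Q and 143 in wild type at 29 weeks (-0.51) and 187 and 191 at 12 weeks in the same 2 genotypes (-0.03). Rbfox3, which encodes the neuronal antigen NeuN, was 151 in 92Q and 174 in wild type at 29 weeks (-0.20). Kcnk9, a leak potassium channel gene of granule neurons, went the other way, with 23 in 92Q and 16 in wild type (0.50). At 12 weeks 11 of the 15 were higher in 92Q and 3 lower, with a median of 0.08. With age in 92Q 11 were lower at 29 weeks and 3 higher (median -0.17). Grm4 was lower (-0.90) and Kcnk9 higher (23 at 29 weeks and 15 at 12 weeks, 0.585) by 1.5-fold or more, as were 1.46% of all 7667 genes in either direction. The ratio of Kcnk9 was at 1.5-fold itself, so rounding of its scores could place it below.

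The partners of the cerebellins were measured as well. Of 13 genes of the cerebellin and C1q-like families and their receptors 9 had values, with Cbln2 and Cbln4 not analysed here. At 29 weeks 5 of the 9 were lower in 92Q, 1 higher and 3 equal, with a median of -0.06. Without Cbln1 and Cbln3, 3 were lower, 1 higher and 3 equal, with a median of 0.00. Under median of ratios scaling, which moved the median of all genes to -0.025, 8 of the 9 were lower and 1 higher. C1ql1, a secreted C1q-like protein made by the climbing fibre neurons of the inferior olive, was 11 in 92Q and 10 in wild type at 29 weeks (0.13), and 8 in 92Q and 9 in wild type at 12 weeks (-0.15). Each of these differences was 1 unit, which rounding alone could make. Among 11 listed chimaerin and Rac genes 10 were measured. At 29 weeks 5 of the 10 were lower in 92Q, 4 higher and 1 equal, with a median of -0.03. Without Chn2, 4 were lower, 4 higher and 1 equal, with a median of 0.00. Under the same median of ratios scaling 7 of the 10 were lower and 3 higher. Tiam1, a Rac activator of granule neurons, was 53 in 92Q and 61 in wild type at 29 weeks (-0.20) and 64 in both at 12 weeks.

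**Figure D4:**
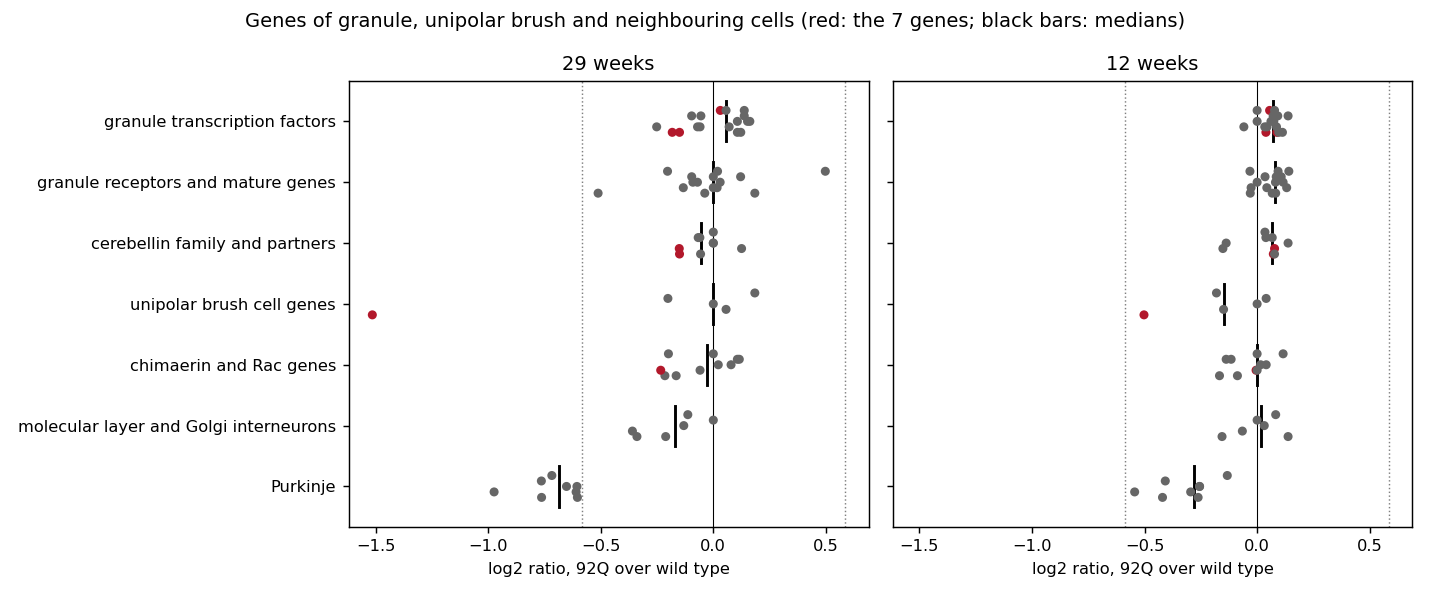
Log2 ratios of 92Q over wild type (x axis) for genes of 7 lists (rows), at 29 weeks (left) and 12 weeks (right); each dot is a gene, red dots are the 7 genes of interest, black bars are list medians and dotted lines mark 1.5-fold. The granule lists centre near 0 at both ages, and the 8 Purkinje markers lie at a median of -0.68 at 29 weeks and -0.28 at 12 weeks.

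Markers of other cell types moved in the same comparisons. The summed score of 8 Purkinje markers was 2889 in 92Q and 4778 in wild type at 29 weeks, and 4405 in 92Q and 5769 in wild type at 12 weeks; all 8 were lower in 92Q at both ages, and past 1.5-fold at 29 weeks. Molecular layer and Golgi interneuron markers summed to 892 in 92Q and 1102 in wild type at 29 weeks, with 5 of 6 lower. Pvalb had the highest score of the 6, at 580 in 92Q and 734 in wild type. The other 5 summed to 312 in 92Q and 368 in wild type, of which Gad1 was 144 in 92Q and 185 in wild type. Gad1 (-0.36) and Pvalb (-0.34) had the lowest ratios of the 6, and the rest lay between -0.21 and 0.00. Microglial markers summed to 258 in 92Q and 121 in wild type at that age, with 6 of 6 higher, and choroid plexus markers to 1459 in 92Q and 466 in wild type, with 5 of 5 higher. Cx3cr1, Kcnj13, Clic6, Kl and Sostdc1 among these reached the table's minimum of 10 in 92Q at 29 weeks alone, so their direction was fixed by having a row. Oligodendrocyte markers summed to 3935 in 92Q and 3712 in wild type, with 5 of 6 higher, and astrocyte and Bergmann glia markers to 1133 in 92Q and 1024 in wild type, with 3 of 7 higher. That glial sum turns on Gfap, an astrocyte filament protein, at 235 in 92Q and 95 in wild type; the other 6 markers summed to 898 in 92Q and 929 in wild type. At 12 weeks the choroid plexus sum was 10 in 92Q and 354 in wild type, with Kl and Sostdc1 listed at 0 in 92Q. Xist, the RNA of the inactive X chromosome, was 25 in 92Q and 63 in wild type at 29 weeks, and 30 in 92Q and 66 in wild type at 12 weeks. The Y-linked Eif2s3y, which reached 10 in the 92Q columns alone, was 15 in 92Q and 6 in wild type at 29 weeks, and 12 in 92Q at 12 weeks, where wild type is listed at 0. The sex makeup of the pools and the genotype cannot be told apart. No brainstem marker of 10 listed was analysed here, and of 7 forebrain and olfactory bulb markers 2 were, Th and Tcf7l2. Th was 5 in 92Q and 11 in wild type at 29 weeks, and reached 10 in that wild-type condition alone. Tcf7l2 was 19 in both genotypes at 29 weeks, and 11 in 92Q and 16 in wild type at 12 weeks (-0.50). At 12 weeks Tcf7l2 thus had the same scores as Eomes, and Th was 7 in 92Q and 8 in wild type. The part of these markers in the values of Eomes and of the granule genes was not tested.

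The genes most like Eomes were found by the distance between the log2 ratios of the other 3 conditions to wild type at 12 weeks, over 4 conditions. Fam107b, Gm5083, Dusp5 and Col18a1, which were among the 5 nearest, were 0.48 to 0.53 log2 units away. Fam107b was 34 in 92Q and 64 in wild type at 29 weeks, and 55 in 92Q and 73 in wild type at 12 weeks. For Cbln1, the member with the next largest range, the nearest were Plch2 (0.07), Tmem132a, Golga7b, the vesicular glutamate transporter Slc17a7 (0.09) and Gm2694 (0.10). Gm2694 is a long noncoding RNA gene on the strand opposite Cbln1 that spans the whole of it, with 0 shared exon bases. Its score was 111 in 92Q and 124 in wild type at 29 weeks, and 148 in 92Q and 151 in wild type at 12 weeks.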

How the data were processed

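Cerebellar total RNA was isolated with TRIzol and an RNeasy kit and sequenced from TruSeq libraries on an Illumina HiSeq instrument (single-end, 50 bases), per the labels' protocols. Bowtie 0.12.7, SAMtools 0.1.12a, Cuffdiff 1.3.0 and build mm10 appear in the submitters' processing notes; no source used here gives their roles, the annotation or the normalization. The deposited score is 1 whole number for each gene in each condition, with a median of 22 in each of the 4 columns and column sums of 322446 to 333581, so it was read as normalized and rounded, not as read counts; depth is unknown and no counting interval can be given. Whether it is scaled to gene length is unknown, so levels were not compared between genes.

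Of 7684 rows, 17 named by a date-like number were left out. Log2 ratios used a pseudocount of 1 where one or both conditions reached 5, which understates changes of low genes, and rounding ranges moved each score by 0.5. Calls were at 1.5-fold; no test was possible with 1 value per condition, so the limma fit written for library values was not used. The ratio step was tested on simulated data. Alternatives were other pseudocounts, minimum values, scalings and a 2-fold threshold. Named genes were the 7 genes, at most 4 per list and comparison with the largest ratios, Zic4, other Cbln and Chn genes, and the 5 nearest in pattern to 2 members; marker examples were picked with their values known, and counts without rows that reach 10 in 1 genotype alone and sums without 1 marker were added after the data were seen. Some genes of the lists and 1 of those nearest in pattern are not reported here; list counts leave them out. The genes, lists and thresholds were chosen with earlier results of these data known. Python 3.11.15 with pandas 2.3.3 and numpy was used.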

Additional observations from a re-analysis of the deposited data

Results flagged for a closer look

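For 4 genes the 92Q difference had opposite signs at the 2 ages, beyond what rounding of the scores allows. The 29-week log2 ratio minus the 12-week ratio was -0.22 for Neurod1, -0.24 for Zic1, -0.22 for Cbln1 and -0.23 for Cbln3. Each was lower in 92Q at 29 weeks and higher in 92Q at 12 weeks. For Eomes the age difference had opposite signs in the 2 genotypes, with 6 at 29 weeks and 11 at 12 weeks in 92Q, against 19 at 29 weeks and 16 at 12 weeks in wild type, and the age ratio in 92Q minus that in wild type was -1.01. With 1 value per condition none of these differences was tested.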

How the results depend on the processing

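Of the 7 genes, Eomes stayed the only one past 1.5-fold at 29 weeks under every pseudocount, minimum, scaling and threshold tried, and none passed at 12 weeks or with age in wild type under any of them. With age in 92Q the count of 1 became 0 with a pseudocount of 5 and at a 2-fold threshold. Scaling moved the medians of the 6 granule genes without turning any. Upper quartile scaling gave 0.098 for genotype at 12 weeks, -0.053 for age in wild type and -0.260 for the difference of genotype ratios. Median of ratios scaling gave -0.178 for genotype at 29 weeks, -0.070 for age in wild type, -0.285 for age in 92Q and -0.254 for the difference. Quantile normalization gave -0.123, -0.019, -0.210 and -0.211 for the same 4 medians. The cause of these moves was not tested beyond the scaling itself. The 29-week ratio of Eomes lay between -1.93 (quantile normalization) and -1.13 (pseudocount 5). Leaving out single libraries could not be run, because the table holds 1 value per condition. No paired analysis was possible because the columns carry no replicate numbers. The unknown depth limits Eomes most, at scores of 6 to 19.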

Other observations

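Nos1, Kcnk9 and Slc17a6 of the granule and unipolar brush cell lists had scores that were higher at 29 weeks, in contrast to the 6 granule genes. They were picked with their values known. Of the 15 mature granule neuron genes 3 were higher with age in 92Q and 11 lower, and in wild type 5 and 9. Of the 5 unipolar brush cell genes 2 were higher in 92Q and 3 lower, and in wild type 3 and 2. Of all genes, 3247 of 7667 were higher with age in 92Q and 2489 of 7663 in wild type. Nos1, the neuronal nitric oxide synthase, was 24 at 29 weeks and 17 at 12 weeks in 92Q, and 21 at 29 weeks and 16 at 12 weeks in wild type. Kcnk9 was 23 at 29 weeks and 15 at 12 weeks in 92Q, and 16 at 29 weeks and 14 at 12 weeks in wild type. Slc17a6, which excitatory neurons of the cerebellar nuclei and unipolar brush cells use to load glutamate, was 24 at 29 weeks and 14 at 12 weeks in 92Q (log2 ratio 0.74), and 21 at 29 weeks and 16 at 12 weeks in wild type (0.37). None of these values has a replicate error.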
